A study of Homo with 4 samples.

Results

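The respiratory chain genes of H1299 cells were compared between a control hairpin and a hairpin against IGF2BP3. The members were every gene on the mitochondrial chromosome and every nuclear gene whose symbol, assigned by its GRCh38 position, named a subunit of complexes I, III, IV or V (NDUFA, NDUFB, NDUFC, NDUFS, NDUFV, UQCR, COX4 to COX8, ATP5F1, ATP5M, ATP5P or CYC1), without the NDUFAF assembly factors. This gave 93 genes of the 20263 in the count table, with 13 encoded by mitochondrial DNA (mtDNA) and 80 by the nucleus. Of the nuclear genes, 36 belonged to complex I, 9 to complex III, 17 to complex IV and 18 to complex V. The rule held for 84 nuclear symbols in RefSeq, and UQCRHL, ATP5MF-PTCD1, NDUFA5 and NDUFA7 had no unique positional match in the count table, so they were not analysed here.

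H1299 cells, an established line from a human lung tumour of the non-small cell type, were grown in culture and infected with lentivirus in both groups. The shCtrl group carried a control hairpin (n = 2 libraries, genotype labelled WT) and the shIGF2BP3 group a hairpin that knocks down IGF2BP3 (n = 2). The sample labels call the libraries biological replicates 1 and 2 of each group, whereas the column names in the tables give the numbers 2 and 3 for shIGF2BP3. Whether these carry the same hairpin is not stated, so their spread may include a difference between hairpins. IGF2BP3 is an RNA-binding protein that attaches to many mRNAs, among them methylated ones, and its level is a check of the labels.

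The respiratory chain sits in the inner mitochondrial membrane. Complex I takes electrons from NADH, complex III passes them from coenzyme Q to cytochrome c, and complex IV hands them to oxygen. These complexes pump protons, and complex V, the ATP synthase, uses the gradient to make ATP. Each of them is built from subunits of both genomes. The mtDNA mRNAs are transcribed as long precursors from either strand of a small circular genome and then cut apart, while every nuclear subunit has its own promoter and is imported as a protein. Core subunits include those that carry the redox centres or the rotor, and supernumerary subunits surround and stabilise the core.

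Total counts ran from 29709686 to 34817513 per library. The estimated counts were summed to genes and tested with edgeR's quasi-likelihood test over 13379 genes, and levels are given in CPM, a gene's count relative to the size of its library after scaling by edgeR's TMM factors. The common biological coefficient of variation was 22.8%. IGF2BP3 was at 41.1 and 32.9 CPM in shCtrl and 26.4 and 24.8 CPM in shIGF2BP3, and both knockdown libraries were below both controls (log2 fold change -0.53, SE 0.17, adjusted p = 0.472). It missed the fold change of 1.5 that is used for calls below. With each library left out its log2 fold change ran from -0.68 to -0.36. The epithelial keratins KRT8 and KRT18 together made up nearly all of the epithelial marker sum of 1799 to 2196 CPM, while the epithelial markers EPCAM, CDH1 and KRT19 were below 1 CPM. The summed level of 3 lung epithelial markers ran from 0.327 to 0.620 CPM, that of 4 leukocyte markers from 0.174 to 0.531 CPM, that of 3 endothelial markers from 0.145 to 0.266 CPM and that of 4 fibroblast markers from 0.718 to 1.45 CPM. PTPRC, CD3E and LUM were at 0 in every library.

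To ask whether the mRNA output of the mitochondrial genome differed between groups, its share of all counts was taken first. The 13 mtDNA genes took 9.11% and 13.4% in shCtrl and 11.4% and 17.0% in shIGF2BP3. The lowest library was a control and the highest a knockdown library, but the groups overlapped. The group means were 11.3% ± 3.06 and 14.2% ± 3.96 (SD, n = 2 each), and the difference of 2.95 percentage points was smaller than the SD of either group (exact permutation test, two-sided, p = 0.667, where 2 libraries against 2 allow no p below 0.333). Without shIGF2BP3 replicate 2 the difference was 0.149 points, without shCtrl replicate 1 it was 0.788 points, without shCtrl replicate 2 it was 5.11 points and without shIGF2BP3 replicate 1 it was 5.75 points.

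The 80 nuclear genes together took 1.56% and 1.68% in shCtrl and 1.63% and 1.51% in shIGF2BP3. These shares differed far less between libraries than those of the mitochondrial genome. The ratio of mtDNA to nuclear subunit counts, which does not depend on how libraries are scaled, was 5.82 and 8.01 in shCtrl and 7.01 and 11.3 in shIGF2BP3. The groups overlapped again, and the difference of 0.38 on the log2 scale lay between the SDs of 0.32 in shCtrl and 0.49 in shIGF2BP3 (n = 2 each, exact permutation p = 0.667). Without shIGF2BP3 replicate 2 it was 0.04, without shCtrl replicate 1 it was 0.15, without shCtrl replicate 2 it was 0.61 and without shIGF2BP3 replicate 1 it was 0.73.

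**Figure D1:**
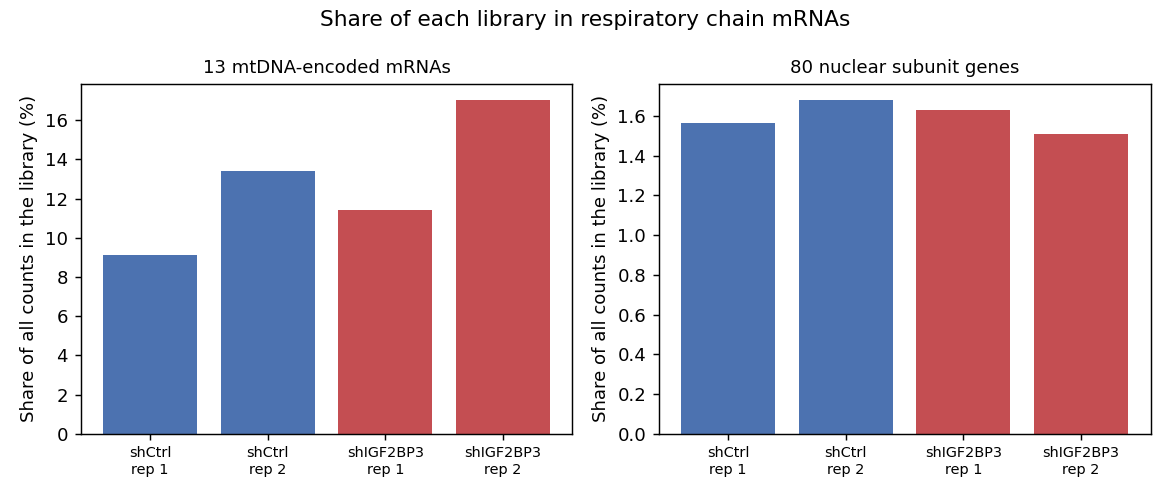
Share of all counts in each library (percent, axes from 0) taken by the 13 mtDNA genes, left, and by the 80 nuclear subunit genes, right, with 1 bar per library, blue for shCtrl and red for shIGF2BP3. On the left the bars stand at 9.11% and 13.4% against 11.4% and 17.0% and overlap between groups, while on the right all 4 stay between 1.51% and 1.68%.

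The spread between libraries of the same group was larger for the mitochondrial genome than for other genes. In shCtrl, 12 of the 13 mtDNA genes were higher in replicate 2 than in replicate 1, with a median log2 ratio of 0.68, and in shIGF2BP3 all 13 were, with a median of 0.72. Taken without its sign, this ratio had a median of 0.68 and 0.72 over the mtDNA genes, of 0.30 and 0.13 over the 76 nuclear genes tested and of 0.22 and 0.20 over all genes tested, in shCtrl and shIGF2BP3. The mtDNA genes differed together between libraries of the same label, by a median larger than the fitted difference between the groups.

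All 13 mtDNA genes had a fitted log2 fold change above 0, from 0.16 to 0.88 with a median of 0.48. Of all genes tested 49.8% were above 0 and their median was 0.00. The 13 are not 13 separate RNAs, as MT-ATP8 and MT-ATP6 share 46 bases and MT-ND4L and MT-ND4 share 7. The standard errors were wide, with a median of 0.33 against 0.20 over all genes. Only MT-ND3 passed a fold change of 1.5 with an unadjusted p of at most 0.05, thresholds that 2.54% of all genes tested passed upward and 2.78% downward. No member passed an adjusted p under 0.05 (0 of 89 tested, 0% of all genes tested in edgeR's quasi-likelihood test). At an unadjusted p of at most 0.05 there were 11 members of the 89, where 10.5% of all genes tested passed. DESeq2 called 2 members at its adjusted p, where it called 160 of the 13379 genes tested. The median stayed above 0 with every scaling tried and with each library left out, but without shIGF2BP3 replicate 2 it was 0.06 and without shCtrl replicate 1 it was 0.20, and in each of these fits 4 of the 13 were below 0. It was 0.84 without shCtrl replicate 2 and 0.81 without shIGF2BP3 replicate 1.

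The mtDNA subunits of complex I, which build its membrane arm, held both the largest and the smallest fitted difference of the 13. MT-ND3 (ENSG00000198840, chromosome MT, 10059 to 10404, plus strand, GRCh38) was at 1717 and 2117 CPM in shCtrl and 2942 and 4108 CPM in shIGF2BP3. The highest control stayed below the lowest knockdown library (log2 fold change 0.88, SE 0.22, adjusted p = 0.472 in edgeR, from 0.0162 to 0.558 over the alternatives that kept all libraries). Among the fits that left out a library, it lost its call only without shCtrl replicate 1, where the log2 fold change was 0.74 and the unadjusted p was above 0.05. MT-ND2 was at 4650.3 and 6689 CPM in shCtrl and 6669 and 11761 CPM in shIGF2BP3 (log2 fold change 0.70, SE 0.33, adjusted p = 0.498). MT-ND1 was at 5114 and 7779 CPM in shCtrl and 7165 and 12946 CPM in shIGF2BP3 (log2 fold change 0.64, SE 0.35, adjusted p = 0.525). In both, the lower knockdown library lay below the higher control, so the groups overlapped.

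MT-ND5 was at 3865 and 6950.5 CPM in shCtrl and 6299 and 9601 CPM in shIGF2BP3 (log2 fold change 0.56, SE 0.35, adjusted p = 0.562). MT-ND6, the mRNA encoded on the minus strand (chromosome MT, 14149 to 14673), was at 1458 and 2088 CPM in shCtrl and 2020.0 and 3379 CPM in shIGF2BP3 (log2 fold change 0.61, SE 0.30, adjusted p = 0.515). The groups overlapped in both, and the strand setting of the counting is not given in the sources used here, so reads from RNA opposite to MT-ND6 cannot be told apart from its own. MT-ND4 was at 11504 and 18376 CPM in shCtrl and 15039 and 26098 CPM in shIGF2BP3 (log2 fold change 0.46, SE 0.35). MT-ND4L was at 1926 and 3259.9 CPM in shCtrl and 2263 and 3537 CPM in shIGF2BP3 (log2 fold change 0.16, SE 0.33), the smallest difference of the 13. These genes share 7 bases on the same strand and the groups overlapped in each.

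MT-CYB, cytochrome b and the only mtDNA subunit of complex III, was at 5398 and 7947 CPM in shCtrl and 7062 and 12418 CPM in shIGF2BP3 (log2 fold change 0.55, SE 0.33, adjusted p = 0.556). The 3 mtDNA subunits of complex IV had smaller differences. MT-CO1 was at 20019.6 and 35769 CPM in shCtrl and 25945 and 42621 CPM in shIGF2BP3 (log2 fold change 0.30, SE 0.37). MT-CO2 was at 9876 and 16874 CPM in shCtrl and 13724 and 20844 CPM in shIGF2BP3 (log2 fold change 0.37, SE 0.33), and MT-CO3 at 15334 and 25644 CPM in shCtrl and 19005 and 30371 CPM in shIGF2BP3 (log2 fold change 0.27, SE 0.34). In all 4 of these mRNAs the higher control exceeded the lower knockdown library.

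MT-ATP6 and MT-ATP8, the membrane subunits a and A6L of the ATP synthase, overlap by 46 bases and are read from the same RNA. MT-ATP6 was at 1734 and 3229 CPM in shCtrl and 2332 and 3602 CPM in shIGF2BP3 (log2 fold change 0.26, SE 0.36), and its groups overlapped. MT-ATP8 was at 1347 and 1278 CPM in shCtrl and 1365 and 2292 CPM in shIGF2BP3 (log2 fold change 0.48, SE 0.26, adjusted p = 0.526), and its lowest knockdown library stood only just above its highest control. MT-ND3 and MT-ATP8 were thus the 2 of 13 with groups apart, where 23.3% of all genes tested had both knockdown libraries above both controls. How reads shared with nuclear copies of mtDNA were counted is not given in the sources used here.

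**Figure D2:**
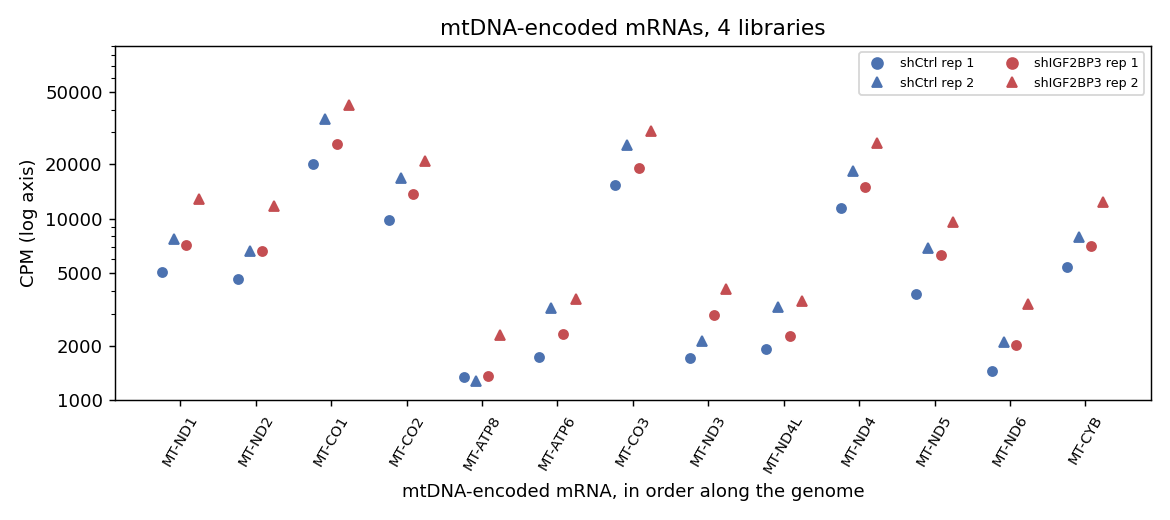
CPM (log axis) of the 13 mtDNA genes in order along the genome, with 1 point per library, blue for shCtrl and red for shIGF2BP3, circles for replicate 1 and triangles for replicate 2. Replicate 2 lies above replicate 1 of its group in every gene but MT-ATP8 in shCtrl, and the groups are apart only for MT-ND3 and MT-ATP8.

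Per length, MT-CO3 was the most abundant of the 93, at 17910.0 and 27025 FPKM in shCtrl and 21025 and 30818 FPKM in shIGF2BP3 (FPKM, fragments scaled by transcript length and library size, as deposited and summed per gene). The median level was 5550 FPKM over the 13 mtDNA genes in shCtrl and 151 FPKM over the 74 nuclear genes with a mean of at least 1 FPKM. In shIGF2BP3 these medians were 8058 and 138 FPKM. Complex IV had the highest mtDNA levels, with a median of 16805 FPKM in shCtrl for its 3 genes against 4807 FPKM for the 7 of complex I. Among the nuclear genes, complex IV also led with a median of 251 FPKM, followed by complex V with 215, complex III with 140 and complex I with 90.3.

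The composition of the mtDNA pool was compared next, since it sets aside how much of a library the pool took. MT-ND1 made up 6.09% and 5.64% in shCtrl and 6.41% and 7.05% in shIGF2BP3. MT-ND2 made up 5.54% and 4.85% in shCtrl and 5.96% and 6.41% in shIGF2BP3, and MT-ND3 2.05% and 1.53% in shCtrl and 2.63% and 2.24% in shIGF2BP3. Each of these complex I mRNAs took a larger part of the pool in both knockdown libraries than in either control. The same held for MT-ND5, with 4.60% and 5.04% in shCtrl and 5.63% and 5.23% in shIGF2BP3, and for MT-ND6, with 1.74% and 1.51% in shCtrl and 1.81% and 1.84% in shIGF2BP3.

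MT-CO1 made up 23.8% and 25.9% in shCtrl and 23.2% and 23.2% in shIGF2BP3. MT-CO3 made up 18.3% and 18.6% in shCtrl and 17.0% and 16.5% in shIGF2BP3. MT-ND4L, also a complex I subunit, made up 2.29% and 2.36% in shCtrl and 2.02% and 1.93% in shIGF2BP3. These 3 genes took a smaller part in both knockdown libraries, and the shares of MT-ND4, MT-CYB, MT-CO2, MT-ATP6 and MT-ATP8 overlapped between groups. Over the 13 shares compared, 8 were apart, each with an exact permutation p of 0.333, the smallest that 2 libraries against 2 allow, so none could pass a threshold. By CPM, 23.3% of all genes tested had both knockdown libraries above both controls and 23.5% had both below. Shares of the same pool are also not independent of each other.

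**Figure D3:**
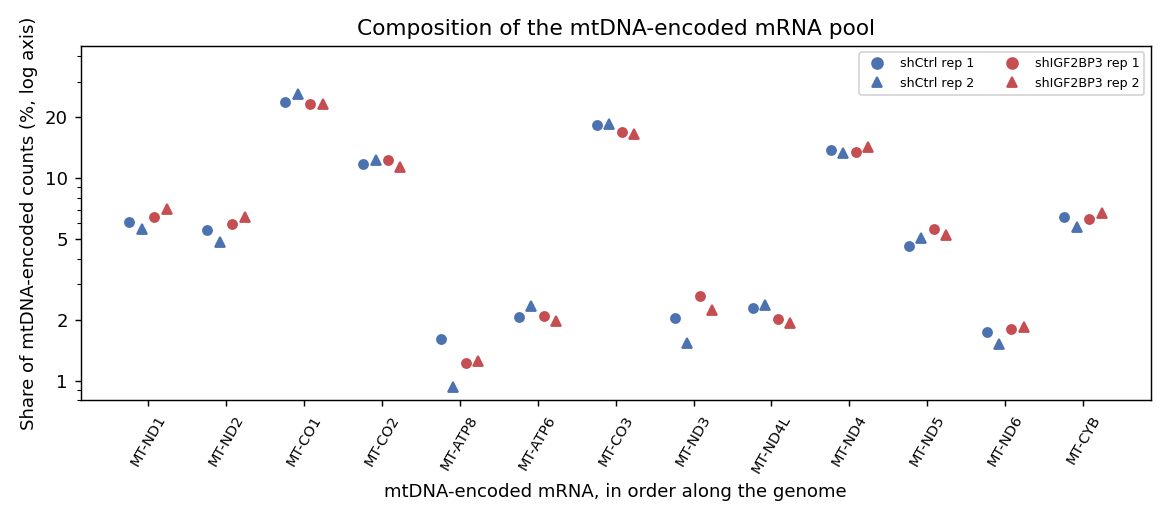
Share of the mtDNA-encoded counts (percent, log axis) taken by each of the 13 genes in order along the genome, with 1 point per library, colours and symbols for groups and replicates. Red points lie above both blue points for MT-ND1, MT-ND2, MT-ND3, MT-ND5 and MT-ND6 and below them for MT-CO1, MT-CO3 and MT-ND4L.

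The nuclear subunits showed no common direction. Of the 76 tested, 40 had a log2 fold change above 0 and 36 below 0, with a median of 0.02, and with library totals in place of TMM factors 32 were above and 44 below. That scaling also moved the calls over all genes from 340 higher and 372 lower to 195 and 485. In 13 nuclear genes both knockdown libraries were above both controls and in 12 both were below, where the shares over all genes tested were 23.3% and 23.5%. COX6C, a small subunit of complex IV, passed the fold and p thresholds upward. At an unadjusted p of at most 0.05 alone there were 4 higher and 6 lower, where 5.43% and 5.12% of all genes tested passed. Over both genomes 2 members were called higher and 1 lower among 89 tested, where 5.32% of all genes tested were called in either direction.

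The 36 nuclear genes of complex I divided evenly, 18 above and 18 below 0, with a median of 0.02 (16 above and 20 below with library totals). Its core subunits hold the flavin and the iron-sulfur clusters. NDUFV1, the flavin subunit that oxidises NADH, was at 90.7 and 109 CPM in shCtrl and 77.6 and 69.6 CPM in shIGF2BP3 (log2 fold change -0.44, SE 0.15, adjusted p = 0.472). Its partner NDUFV2 was at 180.0 and 183 CPM in shCtrl and 212 and 284 CPM in shIGF2BP3 (log2 fold change 0.45, SE 0.18, adjusted p = 0.472). The groups were apart in opposite directions for these neighbours of the same module, and both had an unadjusted p of at most 0.05 without a fold of 1.5. NDUFS3, also a core subunit, was at 126 and 136 CPM in shCtrl and 148 and 158 CPM in shIGF2BP3 (log2 fold change 0.22, SE 0.13), with both knockdown libraries higher. NDUFS1, NDUFS7 and NDUFS8 overlapped between groups, with log2 fold changes of 0.03, -0.12 and -0.18.

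Of the 28 supernumerary subunits 15 were above and 13 below 0, with a median of 0.06. NDUFA10, a supernumerary subunit beside the membrane arm, was at 129.7 and 124 CPM in shCtrl and 98.5 and 84.1 CPM in shIGF2BP3 (log2 fold change -0.48, SE 0.14, adjusted p = 0.472), with both knockdown libraries lower. NDUFB9 had the highest level per length of the nuclear complex I genes, at 448 and 428 FPKM in shCtrl and 481 and 466 FPKM in shIGF2BP3, and a log2 fold change of 0.18 (SE 0.13). NDUFC1 and NDUFC2, which pair in the membrane arm, had both knockdown libraries higher, with log2 fold changes of 0.31 and 0.30 (SE 0.14 and 0.14). NDUFB5 was at 47.3 and 36.7 CPM in shCtrl and 71.7 and 33.2 CPM in shIGF2BP3, so the knockdown libraries held both its highest and its lowest value. The readthrough NDUFC2-KCTD14, which shares sequence with NDUFC2, was below 2 CPM in every library and its fold change is uncertain.

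The 9 nuclear genes of complex III were described by role. Among the 4 catalytic and core subunits 3 had both knockdown libraries below both controls and 1 had both above, where 23.5% and 23.3% of all genes tested did, and the median log2 fold change was -0.39. CYC1, cytochrome c1, was at 367 and 460.2 CPM in shCtrl and 322 and 315 CPM in shIGF2BP3 (log2 fold change -0.38, SE 0.16, adjusted p = 0.48). UQCRFS1, the Rieske iron-sulfur protein, was at 378 and 353 CPM in shCtrl and 312 and 240.1 CPM in shIGF2BP3 (log2 fold change -0.40, SE 0.17, adjusted p = 0.48). UQCRC1, a core protein, was at 289 and 339.7 CPM in shCtrl and 249.7 and 211 CPM in shIGF2BP3 (log2 fold change -0.45, SE 0.16, adjusted p = 0.472). All 3 were lower in both knockdown libraries, but each missed a fold of 1.5, and among them only UQCRC1 passed the unadjusted p threshold alone. The other core protein, UQCRC2, was at 109 and 118 CPM in shCtrl and 125 and 128 CPM in shIGF2BP3 (log2 fold change 0.15, SE 0.13), higher in both.

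The 5 small subunits of complex III had a median of 0.05, with 3 above and 2 below 0. UQCRB, a subunit named for ubiquinone binding, was at 302 and 416 CPM in shCtrl and 433 and 601 CPM in shIGF2BP3 (log2 fold change 0.53, SE 0.23, adjusted p = 0.484), with both knockdown libraries higher. UQCRH, the hinge protein beside cytochrome c1, had the highest level per length in the complex, at 548 and 593 FPKM in shCtrl and 556 and 454 FPKM in shIGF2BP3, and a log2 fold change of -0.12 (SE 0.15). The difference between subunit roles was not tested.

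Of the 17 nuclear genes of complex IV, 14 were tested, 8 above and 6 below 0, with a median of 0.07 (7 and 7 with library totals). COX6C (ENSG00000164919, chromosome 8, minus strand), a small membrane subunit, was at 173 and 182 CPM in shCtrl and 256 and 297 CPM in shIGF2BP3. It had the smallest p of the nuclear members, going from 178 ± 6.96 CPM in shCtrl to 277 ± 29.2 CPM in shIGF2BP3 (mean ± SD, n = 2 each). Its log2 fold change was 0.64 (SE 0.14, adjusted p = 0.472 in edgeR, from 0.0110 to 0.599 over the alternatives that kept all libraries). Both knockdown libraries were above both controls, and the call was lost without shIGF2BP3 replicate 2, where the fold change was 1.44, with library totals (log2 fold change 0.56) and in the 3 fits of limma on FPKM (0.58 in each). COX6C overlaps VPS13B on the other strand, so reads from VPS13B could have been counted for it if strand was not used. This limit was not particular to COX6C, as 25 of the 76 nuclear genes tested overlapped a gene on the other strand. On the same strand 14 of the 76 did. COX5A, a matrix subunit that contacts the core, was at 203 and 252 CPM in shCtrl and 165 and 160.3 CPM in shIGF2BP3 (log2 fold change -0.48, SE 0.16, adjusted p = 0.472), lower in both knockdown libraries.

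COX6B1, the intermembrane space subunit that bridges complex IV monomers, had the highest level per length among the nuclear complex IV genes, at 859.8 and 1103 FPKM in shCtrl and 1055 and 1084 FPKM in shIGF2BP3. COX4I1, COX6A1 and COX6B1 had similar log2 fold changes of 0.18, 0.19 and 0.19, and their groups overlapped. COX7C was at 203 and 402 CPM in shCtrl and 466 and 305 CPM in shIGF2BP3, with the lowest and the second highest value both in controls. COX7A2L, a factor of respiratory supercomplexes, was at 128 and 51.6 CPM in shCtrl and 65.2 and 70.1 CPM in shIGF2BP3, where a single control library was high and the groups overlapped.

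The tissue isoforms of complex IV were nearly silent beside their common partners. COX4I2, a lung isoform, had 0 counts in every library, and a count of 0 in a library allows at most 3 counts. COX6A2, a heart and muscle isoform, had 2 and 0 counts in shCtrl and 0 and 4 in shIGF2BP3. COX8C, a testis isoform, had 0 and 2 counts in the controls and none in either knockdown library. The muscle isoform COX7A1 had 11 and 11 counts in shCtrl and 8 and 5 in shIGF2BP3, and the testis isoform COX6B2 had 12 and 8 in shCtrl and 8 and 10 in shIGF2BP3. Their partners COX4I1, COX6A1, COX7A2, COX8A and COX6B1 were above 100 CPM in every library. COX7A2 was at 173 and 159 CPM in shCtrl and 176 and 133 CPM in shIGF2BP3 (log2 fold change -0.10) and COX8A at 273 and 326 CPM in shCtrl and 259 and 245 CPM in shIGF2BP3 (log2 fold change -0.25), the latter lower in both knockdown libraries. COX7B2 was the exception, at 19.0 and 19.6 CPM in shCtrl and 8.95 and 19.6 CPM in shIGF2BP3, with a single knockdown library low, beside COX7B at 372 and 595 CPM in shCtrl and 482 and 532 CPM in shIGF2BP3.

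COXFA4, listed in older tables as NDUFA4 and now placed in complex IV, did not meet the symbol rule. It was at 267 and 246 CPM in shCtrl and 263 and 211 CPM in shIGF2BP3 (log2 fold change -0.11, SE 0.16), and the groups overlapped. Its relative COXFA4L2, formerly NDUFA4L2, stayed below 2 CPM in every library.

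**Figure D4:**
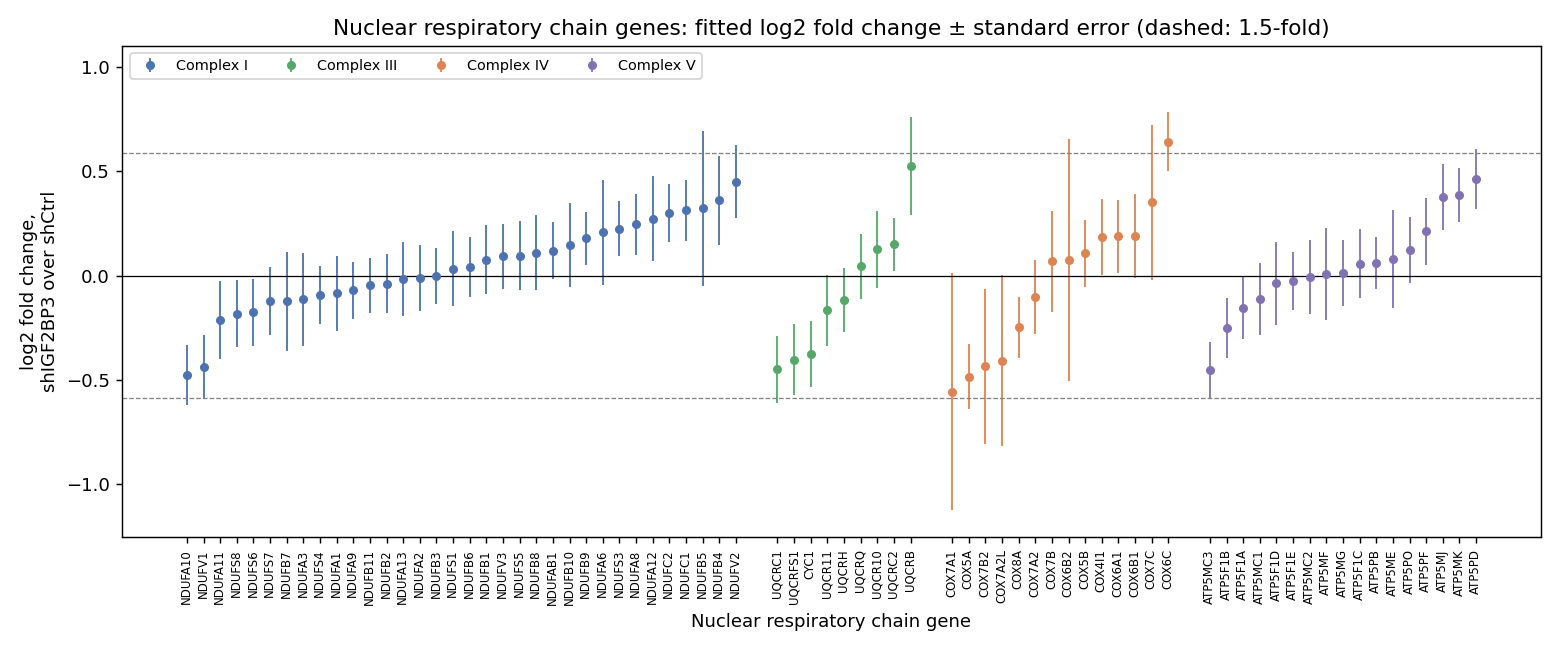
Fitted log2 fold change of shIGF2BP3 over shCtrl with its standard error for the nuclear subunit genes tested, ordered by value within complexes I, III, IV and V, with dashed lines at a fold of 1.5. The points spread on both sides of 0 in each complex, COX6C at 0.64 passes the upper dashed line with p of at most 0.05, and NDUFC2-KCTD14, whose error would set the axis, and 1 gene not reported singly here are left out.

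Complex V had 10 genes above and 7 below 0 of 17 tested, with a median of 0.01 (6 above and 11 below with library totals). The 4 peripheral stalk subunits, which hold the head still against the rotor, were all above 0 with a median of 0.17. With library totals, and also without shCtrl replicate 1, 3 of the 4 were above 0. ATP5PD was at 234 and 261 CPM in shCtrl and 318 and 364 CPM in shIGF2BP3 (log2 fold change 0.46, SE 0.14, adjusted p = 0.472), with both knockdown libraries higher. The 5 accessory subunits of the membrane part were also all above 0, with a median of 0.08 (3 of 5 with library totals). Without shCtrl replicate 1 their median was -0.14. ATP5MK, which is tied to the dimer of the enzyme, was at 199 and 205 CPM in shCtrl and 252 and 276 CPM in shIGF2BP3 (log2 fold change 0.39, SE 0.13, adjusted p = 0.472), higher in both knockdown libraries.

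The 3 genes of the rotating c ring, which encode the same mature protein with different import signals, were all below 0 with a median of -0.11. Without shCtrl replicate 2 their median was 0.099. ATP5MC3 was at 246 and 277 CPM in shCtrl and 191 and 191 CPM in shIGF2BP3 (log2 fold change -0.45, SE 0.13, adjusted p = 0.472), lower in both knockdown libraries. ATP5MC1 and ATP5MC2 had log2 fold changes of -0.11 and -0.01 with overlapping groups. Of the 5 genes of the F1 head and central stalk, where ATP is made, 4 were below 0 (5 with library totals). Their median was -0.04, and without shCtrl replicate 2 it was 0.05. The catalytic subunit ATP5F1B was the highest nuclear member by count, at 1179.9 and 1133 CPM in shCtrl and 1042 and 901 CPM in shIGF2BP3 (log2 fold change -0.25, SE 0.14), and lower in both knockdown libraries. ATP5MF had the highest level per length in complex V, at 866 and 1203 FPKM in shCtrl and 1007 and 968 FPKM in shIGF2BP3, and a log2 fold change of 0.01. The retrogene ATP5MGL had a count of 1 in every library and was not tested.

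The balance of the genomes within each complex was compared as the log2 ratio of mtDNA to nuclear counts. For complex III it was 1.26 and 1.56 in shCtrl and 1.60 and 2.40 in shIGF2BP3, a difference of 0.59 with the groups apart (exact permutation p = 0.333, the smallest possible). For complex I it was 2.93 and 3.36 in shCtrl and 3.31 and 3.99 in shIGF2BP3, a difference of 0.51 with overlap (exact permutation p = 0.667). For complex IV the difference was 0.19 and for complex V 0.33, each with overlap and an exact p of 0.667. With 4 ratios compared and none able to pass 0.05, no order of the complexes can be read from them.

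Many nuclear subunits were deposited as several annotated transcripts, and their estimates were less even than the gene sums. Of the 76 genes tested, 9 had a single transcript and 33 had a leading transcript with over 80% of the gene's FPKM in every library. In 9 genes the share of the leading transcript differed by over 10 percentage points between group means with the groups apart, which is 11.8% of them, where 17.7% of all genes tested did the same. These were ATP5F1C, ATP5F1D, ATP5MJ, COX7B2, NDUFA3, NDUFC1, NDUFS1, NDUFS4 and UQCRB. They were described and not tested.

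NDUFS1, the largest core subunit of complex I, had 1757 and 155 counts of ENST00000432169 in shCtrl and 0 and 0 in shIGF2BP3. Its other main transcript, ENST00000233190, had 1779 and 2186 counts in shCtrl and 3021 and 2318 in the knockdown libraries. The gene sum was at 96.4 and 71.7 CPM in shCtrl and 87.7 and 84.3 CPM in shIGF2BP3 and did not separate the groups. In NDUFS4, ENST00000507026 had 620 and 684 counts in shCtrl and 0 and 112 in shIGF2BP3, while the gene sum stayed at 34.7 and 33.9 CPM in shCtrl and 32.7 and 31.5 CPM in shIGF2BP3. In NDUFA3, ENST00000419113 took 17.9% and 16.0% of the gene's FPKM in shCtrl and 40.2% and 56.6% in shIGF2BP3. In ATP5F1D, ENST00000591660 took 36.0% and 26.8% in shCtrl and 7.41% and 4.67% in shIGF2BP3. COX7A2L differed within a group instead, with 83.0% and 86.5% for ENST00000234301 in shCtrl and 87.6% and 36.2% in shIGF2BP3. Such splits were estimated from reads that overlapping transcripts share.

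**Figure D5:**
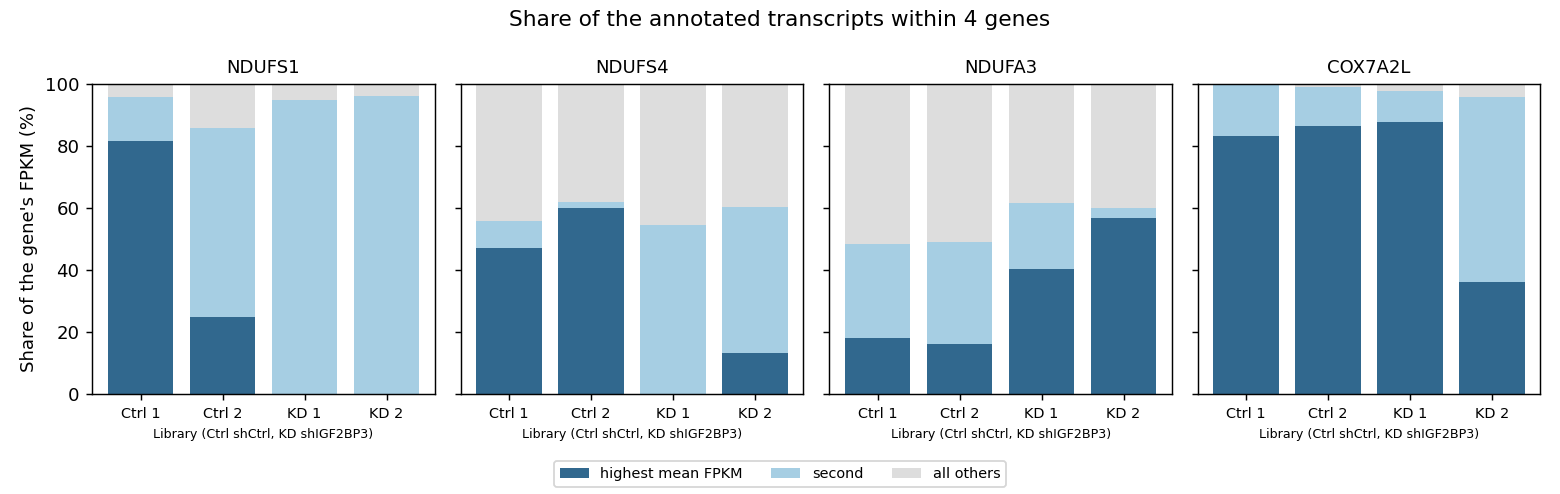
Share of the gene's FPKM (percent) taken by the transcript with the highest mean FPKM, by the second and by all others in NDUFS1, NDUFS4, NDUFA3 and COX7A2L, with 1 bar per library. The leading transcript of NDUFS1 goes from 81.4% and 24.8% in shCtrl to 0% and 0% in shIGF2BP3, while in COX7A2L only shIGF2BP3 replicate 2 stands apart, at 36.2%.

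Genes that serve the chain were described by lists. Complex II, which is encoded by the nucleus alone and feeds electrons from succinate, had all 4 genes below 0, with a median of -0.36, and all 4 stayed below 0 with every scaling and with each library left out. SDHC, a membrane anchor of complex II, was at 93.7 and 69.6 CPM in shCtrl and 54.5 and 43.6 CPM in shIGF2BP3 (log2 fold change -0.73, SE 0.21, adjusted p = 0.472), and it was the only complex II gene that passed the fold and p thresholds, where 2.78% of all genes tested passed downward. SDHA and SDHB, the flavin and iron-sulfur subunits, were also lower in both knockdown libraries, with log2 fold changes of -0.27 and -0.25 (SE 0.15 and 0.13). Of all genes tested, 23.5% had both knockdown libraries below both controls. SDHD overlapped between groups.

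Assembly factors of complex I had 8 genes above and 6 below 0 and no calls among 14 tested, and those of complex III had 2 above and 4 below and no calls among 6. For complex IV, 15 were above and 6 below 0 of 21 (10 and 11 with library totals), with 2 called higher and 1 lower, where 2.54% and 2.78% of all genes tested were. COX17, a copper chaperone, was at 41.1 and 48.7 CPM in shCtrl and 63.1 and 77.6 CPM in shIGF2BP3 (log2 fold change 0.65, SE 0.17, adjusted p = 0.472). COX20, a chaperone of the MT-CO2 protein, was at 53.3 and 57.8 CPM in shCtrl and 75.3 and 92.2 CPM in shIGF2BP3 (log2 fold change 0.59, SE 0.16, adjusted p = 0.472). SCO2, another copper chaperone, was lower at 1.25 and 1.45 CPM in shCtrl and 0.463 and 0.545 CPM in shIGF2BP3 (log2 fold change -1.42, SE 0.35, adjusted p = 0.472), a level near 1 CPM. The complex V list, which holds the inhibitor ATP5IF1 beside assembly factors, had 4 of 5 genes above 0. In it TMEM70, which helps to assemble the c ring, was called higher at 46.9 and 46.5 CPM in shCtrl and 65.7 and 77.9 CPM in shIGF2BP3 (log2 fold change 0.62, SE 0.14, adjusted p = 0.472). The electron carrier list, cytochrome c and the coenzyme Q enzymes, had 6 above and 6 below 0 and no calls among 12.

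Genes for mtDNA transcription had 5 above and 3 below 0 of 8 tested. MTERF1, which binds mtDNA at a transcription terminator, was at 7.37 and 8.20 CPM in shCtrl and 18.3 and 11.0 CPM in shIGF2BP3 (log2 fold change 0.91, SE 0.29, adjusted p = 0.472). MTERF2 was at 9.97 and 8.62 CPM in shCtrl and 15.1 and 19.6 CPM in shIGF2BP3 (log2 fold change 0.90, SE 0.21, adjusted p = 0.472). Both passed the fold and p thresholds upward, where 2.54% of all genes tested did. The RNA polymerase POLRMT had a log2 fold change of -0.27 (SE 0.15) and the packaging factor TFAM -0.07 (SE 0.16). The promoter factor TFB2M was at -0.57 (SE 0.25), and none of these passed. Of 16 genes for mitochondrial RNA processing, stability and decay, 9 were above and 7 below 0, and MTPAP, the mitochondrial poly(A) polymerase, was called higher at 18.8 and 18.3 CPM in shCtrl and 26.4 and 31.0 CPM in shIGF2BP3 (log2 fold change 0.63, SE 0.16, adjusted p = 0.472). Of 8 genes for mtDNA replication 5 were above and 3 below 0, with no calls.

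Of 7 regulators of mitochondrial biogenesis 6 were above 0. The nuclear receptor ESRRA was called higher at 28.4 and 23.1 CPM in shCtrl and 41.9 and 44.0 CPM in shIGF2BP3 (log2 fold change 0.74, SE 0.17, adjusted p = 0.472). NRF1, a transcription factor of many respiratory chain promoters, was called lower at 15.4 and 14.0 CPM in shCtrl and 10.1 and 8.89 CPM in shIGF2BP3 (log2 fold change -0.63, SE 0.18, adjusted p = 0.472). Over all genes tested 2.54% were called higher and 2.78% lower. All genes of these lists had an adjusted p of at least 0.472 in edgeR, while with DESeq2 ESRRA (adjusted p = 0.0278) and TMEM70 (adjusted p = 0.0466) passed 0.05, and 8 listed symbols, among them POLG and PPARGC1A, had no positional match.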

How the data were processed

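RNA-seq was measured in 4 libraries of H1299 cells, 2 shCtrl and 2 shIGF2BP3, made from total RNA with an mRNA library kit. For each transcript and library the authors deposited an estimated count, given as a whole number without normalization, and an FPKM value, scaled by transcript length and depth. The submitters' processing notes name CASAVA, FastQC, Trimmomatic, HISAT2, bedtools and GRCh38. The counting tool, its strand setting and the annotation are not given in the sources used here.

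Estimated counts and FPKM of 95139 transcripts were summed to 20263 genes. Symbols were given to 18218 genes by position, where a gene and a protein-coding RefSeq gene (GRCh38.p14) were each other's best overlap, with at least 0.5 of their joint length shared and a lead of 0.2. The main test was edgeR's quasi-likelihood test (edgeR 4.0.16, R 4.3.3) with TMM factors on genes kept by filterByExpr, whose limits were 10 counts and a total of 15, and p was adjusted by Benjamini-Hochberg over 13379 genes. A gene was called where it passed both thresholds the study names, a fold of 1.5 and p of 0.05 before adjustment. The standard error (SE) was derived from the test, as the absolute log2 fold change divided by the square root of its F statistic. Library shares and ratios were compared with exact permutation tests (scipy 1.17.1). Replicates of a group differed beyond sampling noise over all genes tested (chi-square per degree of freedom 78.9 in shCtrl and 77.5 in shIGF2BP3). For genes with many counts, the spread between 2 libraries, not depth, thus set the precision. Genes with few counts also carry sampling noise, and the tissue isoforms of complex IV that were tested had a median SE of 0.57. The steps were tested on simulated data.

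The members and lists were chosen with earlier results of these data known. Named were all mtDNA genes, members and list genes past the thresholds, the 2 smallest p and the highest FPKM in each nuclear complex, the tissue isoforms of complex IV, members under the low-count filter, and IGF2BP3. The values of 1 member, which entered the counts and sums, are not reported here. Further members were named after their values were seen. Alternatives were RLE factors, library totals, factors from nuclear genes alone, other filters, DESeq2 1.42.0, a replicate block, limma 3.58.1 on FPKM, a fold of 2 and each library left out. Sequences were not used here.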

Additional observations from a re-analysis of the deposited data

How the results depend on the processing

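The mtDNA median stayed above 0 under every alternative, from 0.06 to 0.84 with each library left out, and the mtDNA share and the genome ratio kept their direction on FPKM and with each library left out (0.149 to 5.75 points, and 0.04 to 0.73 on the log2 scale). The medians of the nuclear genes lay near 0 and changed sign. With library totals, which moved the median of all genes to -0.08, they were -0.056 over all nuclear genes, -0.068 for complex I, -0.0051 for complex IV and -0.056 for complex V. With limma on log2(FPKM + 1), log2(FPKM + 0.1) and log2(FPKM + 1) without a filter, which take in 74, 74 and 79 nuclear genes, they were -0.041, -0.041 and -0.039 over all nuclear genes, -0.044, -0.045 and -0.044 for complex I, and -0.043, -0.043 and -0.041 for complex V. With each library left out they ran from -0.076 to 0.155 over all nuclear genes, from -0.072 to 0.147 for complex I, from -0.239 to 0.038 for complex III, from -0.043 to 0.089 for complex IV and from -0.092 to 0.208 for complex V. Members called higher numbered 4 with DESeq2 (COX6C, MT-ND2, MT-ND3 and MT-ND6), against 2 in edgeR. They numbered 1 under each limma fit and 0 at a fold of 2. Over all genes DESeq2 called 2.35% higher, and the limma fits 1.14%, 1.67% and 0.61%. Members called lower numbered 2, 2 and 0 under the limma fits and 0 at a fold of 2. Of all genes the limma fits called 3.06%, 4.02% and 1.42% lower. At an adjusted p under 0.05 DESeq2 called 2 members, COX6C (adjusted p = 0.0110) and MT-ND3 (adjusted p = 0.0162), where edgeR called 0, and 160 genes over the whole table, ESRRA and TMEM70 among them. With each library left out, 1 to 11 members were called higher, 1 to 4 lower and 0 to 0 at the adjusted p. The 11 and the 4 came without shIGF2BP3 replicate 1, where 4.97% of all genes were called higher and 6.37% lower. Single genes changed sign as well. ATP5MF was at -0.057 with library totals and at -0.048 under all 3 limma fits, and COX6B2 at -0.015 with library totals. With each library left out, MT-ND4L ran from -0.20 to 0.59, MT-CO1 from -0.10 to 0.78, MT-CO3 from -0.11 to 0.69, MT-ATP6 from -0.12 to 0.78, UQCRH from -0.24 to 0.019, COX6B1 from -0.034 to 0.45, ATP5MF from -0.26 to 0.34, COX4I1 from -0.0099 to 0.41, COX7A2 from -0.31 to 0.083, COX7B from -0.23 to 0.45, COX7B2 from -1.11 to 0.032 and COX6B2 from -0.26 to 0.39. The causes of these changes were not tested. Of the fold changes of 43 named genes over all settings, 608 kept their direction and their side of the threshold, 24 changed sign and 4 passed an adjusted p of 0.05. The labels number the replicates alike in both groups, whereas the column names number the shIGF2BP3 libraries differently. Paired by the labels alone, same-numbered libraries had a correlation of deviations of 0.052 over 13379 genes. Of the 13 mtDNA genes, replicate 2 exceeded replicate 1 in 12 in shCtrl and in 13 in shIGF2BP3. The correlation covers all genes and cannot tell whether same-numbered libraries share a batch that acts on the mtDNA genes, which was not tested. With the replicate number as a block, 5 members were called higher (COX6C, MT-ND1, MT-ND2, MT-ND3 and MT-ND5) and 1 lower, and 0 passed the adjusted p. Over all genes 354 were called higher and 418 lower. With 2 libraries per group no exact test could pass 0.05.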
